A study of Mus musculus with 10 samples.

Results

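Solute carriers are the large superfamily of membrane proteins that move sugars, amino acids, ions, metals, vitamins and metabolites across the plasma membrane and the membranes of organelles. They were taken here as every gene of the expression table whose symbol starts with Slc, a family number, the letter a and a member number, apart from the ascorbate carrier Slc23a2, the glucose carriers Slc2a1 and Slc2a3 and the cystine carrier Slc7a11. The rule found 204 of the 13578 genes, in 41 families, and uses no measured value. For 5 of them the symbol does not stand for a carrier: Slc9a3r1 and Slc9a3r2 encode scaffold proteins that bind a sodium/proton exchanger, Slc4a1ap and Slc7a6os are named for a partner and a neighbouring gene, and Slc2a4rg-ps is a pseudogene. They were kept, since the rule takes them.

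RNA was sequenced from the gonadal soma of female mice at embryonic day 13.5, the fraction left after cells with the germ cell factor Oct4 had been sorted off. Each library is called an embryo here, although the labels do not say whether embryos were pooled. All embryos were Gulo-/- on a C57BL/6 background, controls included, and so could not complete vitamin C synthesis and depended on the maternal diet. In 5 embryos vitamin C had been supplied at a physiological level, and the other 5 came from pregnancies without it in early gestation. Whether embryos that share the first number of their title, embryos 2 and 3 in each group, come from 1 litter is not stated. The p-values therefore cover only the variation among these libraries, part of which may be technical. Values are regularised log2 (rlog) expression, in which weakly expressed genes are pulled towards their mean, so that small changes of such genes are understated. The read depth behind the values is unknown and no counting interval can be given. A change is the withdrawn mean less the supplied mean in these log2 units.

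Carriers work in families whose members share a fold and a kind of cargo while differing in direction, driving ion and membrane. Sodium- and proton-coupled carriers accumulate their cargo against a gradient, exchangers trade one solute for another, and mitochondrial carriers link the cytosol with the matrix. In the fetal gonad they feed growing supporting and stromal cells, and a few mark other cells, such as the anion exchanger of red cells or the amine carrier of chromaffin and nerve cells.

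The labelled tissue was checked first. All 13 listed genes of ovarian supporting cells had a row, with a mean level of 10.46 to 10.62 in supplied and 10.43 to 10.59 in withdrawn embryos, while 8 of 12 germ cell genes, Pou5f1, Dazl and Ddx4 among them, had no row under their symbols. Genes of other cells were present. The erythroid list (12 of 14 genes with a row) lay at 8.30 to 9.02 in supplied and 8.41 to 8.98 in withdrawn embryos, and the macrophage list (13 of 14) at 7.29 to 7.55 in supplied and 7.27 to 7.53 in withdrawn embryos. The neural and glial list (9 of 14, with no row for Th, Dbh, Sox10 or Elavl3, among others) lay at 7.31 to 8.59 in supplied and 7.36 to 7.46 in withdrawn embryos, with both highest values in supplied embryos 2 and 3. The stromal list (12 of 12) lay at 12.52 to 12.69 in supplied and 12.65 to 12.81 in withdrawn embryos, with 11 genes above 0 and 4 of 12 higher at an unadjusted p under 0.05, where 2.45% of all genes were. Lower at that level, where 2.84% of all genes were, lay 3 of 15 endothelial, 2 of 13 macrophage, 1 of 13 mesonephric, 1 of 9 neural and 1 of 4 germ cell genes, and 0 of 12 erythroid genes passed it in either direction. The endothelial list lay at 8.51 to 8.69 in supplied and 8.43 to 8.56 in withdrawn embryos and the mesonephric list at 8.97 to 9.15 in supplied and 8.91 to 9.15 in withdrawn embryos, with 3 of 15 and 1 of 13 genes above 0. The part of these lists in the carriers' values was not tested. In such bulk samples, fewer cells of a type and less RNA per cell cannot be told apart.

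No carrier passed the test for a response to vitamin C withdrawal. By limma with Benjamini-Hochberg adjustment over all genes, 0 of the 204 carriers had an adjusted p under 0.05, where 0.0221% of all genes did, and the smallest adjusted p of a carrier was 0.900. At an unadjusted p under 0.05 there were 9 carriers (4.41%), against 5.30% of all genes. Of these, 7 were higher on withdrawal (3.43%, against 2.45% of all genes) and 2 lower (0.980%, against 2.84%). The carriers were evenly divided in direction, 99 above 0 and 105 below, with a median change of -0.0021 beside 0.00021 over all genes. In 193 of the 204 the change was smaller than 0.1, and the 95% intervals had a median half-width of 0.0979. In Slc8a2, Slc46a1, Slc40a1 and Slc2a5 the 5 withdrawn embryos all lay on one side of the 5 supplied ones. These are 4 of 204 carriers (1.96%), where 0.810% of all genes had groups without overlap.

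**Figure D1:**
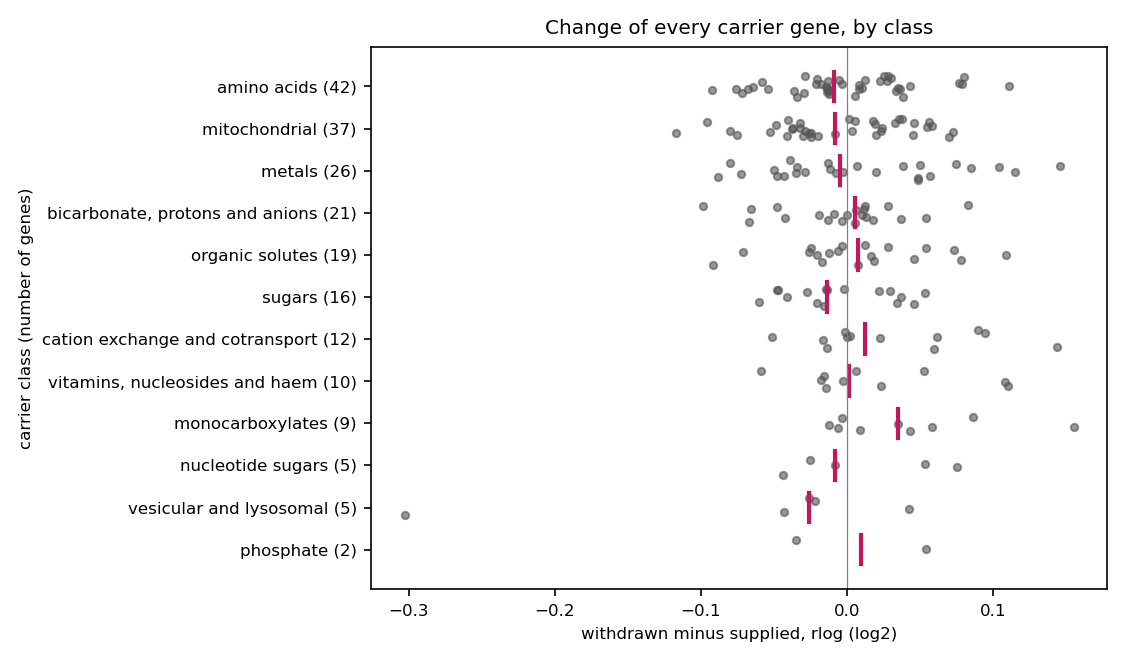
Each point is 1 of the 204 carrier genes, placed by its change (withdrawn minus supplied, rlog, log2 scale) in the row of its class, with the number of genes in brackets; the vertical bar is the class median. Slc18a2 (-0.30) lies apart at the left, and the medians lie between -0.026 and 0.035.

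The smallest p among carriers belonged to Slc8a2, a sodium/calcium exchanger that extrudes calcium. Its values were 8.14, 8.18, 8.03, 8.24 and 8.09 in supplied embryos 1 to 5 and 8.27, 8.34, 8.27, 8.25 and 8.27 in withdrawn embryos 1 to 5. The lowest withdrawn embryo lay just above the highest supplied one. The change was 0.14 (limma adjusted p = 0.900, SE 0.0461); undone from log2 this is 1.10-fold. The paralogs Slc8a1 and Slc8a3 were at 0.090 and -0.051, with limma adjusted p = 0.978 and 0.963. As a description over the 10 embryos, both groups together, the 3 genes of the table most like Slc8a2 were Sec61a1, Zfp426 and Adcy2 (Pearson's r of 0.92, 0.91 and 0.91), whose changes were 0.069, 0.089 and 0.10.

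Slc46a1, the proton-coupled folate carrier, and Slc40a1, the iron exporter ferroportin, were next among the higher ones. Slc46a1 lay at 7.27, 7.24, 7.30, 7.23 and 7.29 in supplied embryos 1 to 5 and 7.49, 7.32, 7.33, 7.39 and 7.35 in withdrawn embryos 1 to 5. Withdrawn embryo 1 was the highest and the groups did not overlap, for a change of 0.11 (limma adjusted p = 0.900, SE 0.0407). Slc40a1 lay at 9.67, 9.70, 9.73, 9.74 and 9.75 in supplied embryos 1 to 5 and 10.10, 9.77, 9.83, 9.78 and 9.85 in withdrawn embryos 1 to 5. Its groups did not overlap either, but withdrawn embryo 1 stood far above the others. The change of 0.15 (limma adjusted p = 0.928, SE 0.0572) became 0.086 without that embryo, and no longer had an unadjusted p under 0.05 (limma adjusted p = 0.824). In the macrophage and erythroid lists, whose cells are rich in this exporter, withdrawn embryo 1 was second highest of the withdrawn embryos (7.38 and 8.54). Withdrawn embryo 5 was the highest of them (7.53 and 8.98), with Slc40a1 at 9.85. Supplied embryos 1 to 3 were above withdrawn embryo 1 in the macrophage list (7.41, 7.44 and 7.55). Supplied embryos 3 to 5 were above it in the erythroid list (9.02, 8.65 and 8.66). Slc40a1 in the supplied embryos was at most 9.75. The part of these cells in the values was not tested.

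A pair of zinc carriers of the secretory pathway lay higher on withdrawal without passing. Slc39a7, which releases zinc from the endoplasmic reticulum, was at 10.98, 10.99, 10.89, 10.98 and 11.003 in supplied embryos 1 to 5 and 11.07, 11.13, 11.15, 11.0004 and 11.01 in withdrawn embryos 1 to 5. Supplied embryo 3 was the lowest and the groups overlapped at their edge. Slc30a5, which loads zinc into the secretory pathway, was at 10.33, 10.36, 10.41, 10.29 and 10.49 in supplied embryos 1 to 5 and 10.58, 10.40, 10.44, 10.54 and 10.50 in withdrawn embryos 1 to 5, with overlapping groups. Their changes were 0.10 (limma adjusted p = 0.928, SE 0.0436) and 0.12 (limma adjusted p = 0.928, SE 0.0490). Slc39a7 shares 2084 exon bases on the same strand with the transcript Gm20427 in the reference annotation, so its reads may not all be its own.

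Slc44a2, of the choline carrier family, was also higher at an unadjusted p under 0.05 and lay at 10.40, 10.34, 10.34, 10.41 and 10.43 in supplied embryos 1 to 5 and 10.55, 10.54, 10.59, 10.45 and 10.33 in withdrawn embryos 1 to 5, where withdrawn embryo 5 was the lowest of all 10, for a change of 0.11 (limma adjusted p = 0.931, SE 0.0502). The next 3 by p on the higher side, Slc1a6 and Slc1a3, which take up glutamate, and the anion carrier Slc26a11, were at 0.079, 0.11 and 0.083, with limma adjusted p = 0.931, 0.949 and 0.956.

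On the lower side Slc18a2, the vesicular monoamine carrier that fills vesicles of chromaffin, nerve and mast cells, had the largest change of any carrier. It lay at 6.05, 6.80, 6.46, 6.12 and 5.98 in supplied embryos 1 to 5 and 5.96, 5.97, 6.02, 6.004 and 5.95 in withdrawn embryos 1 to 5. Supplied embryos 2 and 3 were high and the other 8 embryos lay between 5.95 and 6.12. The change was -0.30 (limma adjusted p = 0.900, SE 0.110). The neural and glial list had the same pattern, at 7.54, 8.59, 8.10, 7.40 and 7.31 in supplied embryos 1 to 5 and 7.44, 7.40, 7.36, 7.46 and 7.38 in withdrawn embryos 1 to 5. Chgb, a protein of neuroendocrine vesicles and the gene of smallest p in that list, lay at 8.36, 12.42, 10.76, 6.86 and 6.82 in supplied embryos 1 to 5 and 7.10, 6.84, 6.86, 6.87 and 7.05 in withdrawn embryos 1 to 5. With supplied embryos 2 and 3 left out, a setting chosen after seeing the data, the change of Slc18a2 was -0.071 and no longer had an unadjusted p under 0.05 (limma adjusted p = 0.996). Since these 2 embryos stand apart from the rest, no correlation is given.

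Slc2a5, the fructose carrier, was the other carrier lower at an unadjusted p under 0.05. Its values were 6.18, 6.16, 6.19, 6.21 and 6.16 in supplied embryos 1 to 5 and 6.10, 6.13, 6.15, 6.10 and 6.11 in withdrawn embryos 1 to 5. They form narrow groups without overlap, for a change of -0.060 (limma adjusted p = 0.931, SE 0.0272). In the next 8 by p on this side the changes were small: -0.058 in the neutral amino acid carrier Slc6a15, -0.10 in the sodium-driven bicarbonate carrier Slc4a8, -0.048 in Slc45a3 and -0.093 in Slc7a14. The zinc exporter Slc30a1 was at -0.080, the mitochondrial citrate carrier Slc25a1 at -0.080, the anion exchanger Slc26a6 at -0.065 and the sugar-phosphate exchanger Slc37a1 at -0.041. None had an unadjusted p under 0.05.

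**Figure D2:**
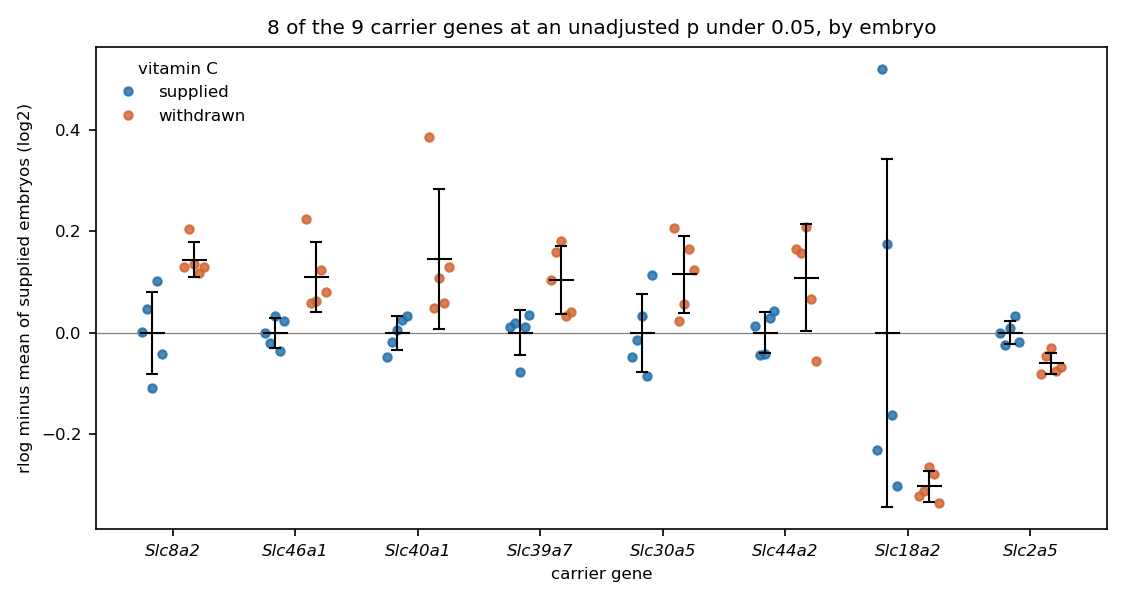
Values of 8 of the 9 carriers at an unadjusted limma p under 0.05, each embryo a point, on the rlog (log2) scale after subtraction of the gene's mean over supplied embryos; the horizontal mark and bar are the mean and SD of each group of 5. In Slc8a2, Slc46a1, Slc40a1 and Slc2a5 the groups do not overlap, Slc40a1 holds 1 high withdrawn embryo (10.10) and Slc18a2 holds 2 high supplied embryos (6.80 and 6.46).

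Among the 42 genes of the amino acid families, 19 lay above 0 and 23 below, with a median of -0.0086, and 0 had an unadjusted p under 0.05 where 5.30% of all genes did. Changes ran from -0.093 in Slc7a14 to 0.11 in Slc1a3. Slc38a2, a sodium-coupled carrier of neutral amino acids that cells raise when amino acids are short, lay at 12.32, 12.31, 12.44, 12.57 and 12.40 in supplied embryos 1 to 5 and 12.35, 12.44, 12.54, 12.39 and 12.26 in withdrawn embryos 1 to 5, with overlapping groups and a change of -0.014 (limma adjusted p = 0.999, SE 0.0585). Slc38a4, an imprinted gene of the same family, was at 11.19, 11.40, 11.19, 11.08 and 10.90 in supplied embryos 1 to 5 and 11.13, 11.08, 10.98, 11.32 and 10.93 in withdrawn embryos 1 to 5. Supplied embryo 2 and withdrawn embryo 4 were its highest, and the change was -0.064 (limma adjusted p = 0.991, SE 0.0817), running from -0.13 to -0.0015 when 1 embryo at a time was left out. In the Slc7 family, light chains and cationic amino acid carriers, 8 of 11 genes lay below 0 (median -0.013), and in the Slc38 family 4 of 9 (median 0.012).

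Carriers that answer to the transcription factor ATF4, the effector of amino acid shortage, held 0 genes at an unadjusted p under 0.05. Over all genes the share was 5.30%, so a count of 0 in so short a list says little about it. Of 8 listed, 7 had a row, with 2 above 0 and 5 below and a median change of -0.014. Their mean level was 9.79 to 9.92 in supplied and 9.80 to 9.88 in withdrawn embryos. Slc3a2, the heavy chain shared by several exchangers, was at 0.0079, and its light chain for large neutral amino acids, Slc7a5, at 0.028. The neutral carriers Slc1a4 and Slc1a5 were at -0.054 and -0.018, the glycine carrier Slc6a9 at -0.029 and the cationic carrier Slc7a1 at -0.013. The exons of Slc6a9 share 1429 bases with Ccdc24 on the opposite strand, and whether counting used strand was not recorded in the labels. The 95% intervals of the 7 reached at most 0.171 from 0. Of the 11 ATF4 targets outside the carriers with a row, 5 lay above 0 and 6 below (median -0.0011), with Psat1 and Phgdh of serine synthesis at -0.12 and 0.067 and the stress factor Ddit3 at -0.080.

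Metal carriers held 3 of the 7 higher ones, namely Slc40a1, Slc39a7 and Slc30a5 (3 of 26, or 11.5%, where 2.45% of all genes were higher); 12 of the 26 lay above 0 and 14 below, with a median of -0.0050. In the ZIP importers (Slc39) 6 of 10 lay above 0 with a median of 0.029, and in the zinc exporters (Slc30) 4 of 8 with a median of 0.0023. Slc39a1, a zinc importer of the plasma membrane, was at 0.075 (limma adjusted p = 0.963, SE 0.0470). Slc39a8, which imports zinc and manganese, was at 7.68, 7.89, 8.12, 7.75 and 7.69 in supplied embryos 1 to 5 and 7.83, 7.76, 7.75, 7.80 and 7.93 in withdrawn embryos 1 to 5, highest in supplied embryo 3, with a change of -0.013 (limma adjusted p = 0.999, SE 0.0715).

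Slc30a1 is the zinc exporter that cells induce, with the metallothioneins Mt1 and Mt2, when zinc binds the factor Mtf1. Its values were 9.25, 9.25, 9.29, 9.40 and 9.21 in supplied embryos 1 to 5 and 9.20, 9.18, 9.19, 9.17 and 9.26 in withdrawn embryos 1 to 5. Supplied embryo 4 was the highest and the change was -0.080 (limma adjusted p = 0.956, SE 0.0449). Mt1 lay at 7.88, 7.84, 7.96, 8.02 and 8.04 in supplied embryos 1 to 5 and 7.94, 7.94, 8.02, 7.91 and 8.37 in withdrawn embryos 1 to 5, and Mt2 at 5.42, 5.31, 5.36, 5.42 and 5.35 in supplied embryos 1 to 5 and 5.44, 5.34, 5.43, 5.32 and 5.55 in withdrawn embryos 1 to 5. All 3 were highest among withdrawn embryos in embryo 5. There both metallothioneins lay above every supplied embryo, and Slc30a1 lay within the range of the supplied embryos. Their changes were 0.091 (limma adjusted p = 0.979, SE 0.0750) and 0.041 (limma adjusted p = 0.989, SE 0.0383), that of Mtf1 -0.035 (limma adjusted p = 0.991, SE 0.0461). The 250 bases before the start of Slc30a1, Mt1 and Mt2 are shown because these genes are known to share the element that Mtf1 binds; they come from RefSeq on GRCm38.p6, and capitals mark the core letters TGCACNC or TGCGCNC on either strand, which did not overlap one another.
Slc30a1 (chr1:191906531-191906780, plus strand): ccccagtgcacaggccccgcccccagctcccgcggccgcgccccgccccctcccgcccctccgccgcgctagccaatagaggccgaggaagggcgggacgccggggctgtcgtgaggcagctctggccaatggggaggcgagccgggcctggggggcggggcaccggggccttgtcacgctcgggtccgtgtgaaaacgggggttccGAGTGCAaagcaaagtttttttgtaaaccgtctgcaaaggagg
Mt1 (chr8:94178839-94179088, plus strand): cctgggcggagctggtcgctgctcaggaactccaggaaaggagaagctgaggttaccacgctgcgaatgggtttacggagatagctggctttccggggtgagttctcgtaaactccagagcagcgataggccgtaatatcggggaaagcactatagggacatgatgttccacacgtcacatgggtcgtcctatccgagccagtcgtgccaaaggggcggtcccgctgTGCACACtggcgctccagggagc
Mt2 (chr8:94172368-94172617, plus strand): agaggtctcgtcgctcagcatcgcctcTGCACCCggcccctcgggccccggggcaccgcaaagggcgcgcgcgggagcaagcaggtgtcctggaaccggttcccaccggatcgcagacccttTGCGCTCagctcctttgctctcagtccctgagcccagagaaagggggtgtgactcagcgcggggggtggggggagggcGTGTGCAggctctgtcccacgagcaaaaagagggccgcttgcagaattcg
Starts are as annotated, and bases after them were not searched, so the counts cover these stretches only and not every such element of a gene. The core was found 1 time before Slc30a1, at position -43 from the annotated start, 1 time before Mt1, at -23, and 3 times before Mt2, at -223, -128 and -50. It is common, being present in 21.4% of 32851 promoters of that length and in 27.8% of the 209 promoters of the 156 carrier genes that had one, so a match only describes the sequence.

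The 37 mitochondrial carriers (Slc25) had 18 genes above 0 and 19 below, with a median of -0.0085. They held 0 genes at an unadjusted p under 0.05, where 5.30% of all genes did. Mitochondrial carriers bring nucleotides, phosphate, metabolites and iron into the matrix. Slc25a4 and Slc25a5, which exchange ADP for ATP, had the highest levels of all carriers for their exon length, as given further on. On the rlog scale, Slc25a4 lay at 12.40, 12.45, 12.43, 12.24 and 12.22 in supplied embryos 1 to 5 and 12.45, 12.24, 12.27, 12.32 and 12.31 in withdrawn embryos 1 to 5, with a change of -0.032 (limma adjusted p = 0.993, SE 0.0564). Slc25a5 lay at 10.64, 10.95, 10.99, 10.75 and 10.56 in supplied embryos 1 to 5 and 10.77, 10.60, 10.62, 10.51 and 10.80 in withdrawn embryos 1 to 5. It was highest in supplied embryos 2 and 3, and its change of -0.12 (limma adjusted p = 0.963, SE 0.0778) became 0.011 without these 2 embryos. The phosphate carrier Slc25a3 and the oxoglutarate carrier Slc25a11, named after their values were seen because theirs were the highest changes of the family, were at 0.070 and 0.073 (limma adjusted p = 0.962 and 0.963).

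Of the 16 genes in the sugar families 6 lay above 0, with a median of -0.014 and changes from -0.060 to 0.054. Slc50a1, a sugar efflux carrier, was at -0.013 (limma adjusted p = 0.998, SE 0.0438), and Slc37a3, of the sugar-phosphate family, at 0.034 (limma adjusted p = 0.992, SE 0.0561). Of the 9 carriers of the monocarboxylate family 6 lay above 0, with a median of 0.035; Slc16a1, the lactate and pyruvate carrier, was at -0.0062 (limma adjusted p = 0.999, SE 0.0455).

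The families that move bicarbonate, protons and anions had 12 of 21 genes above 0 (median 0.0055), and the cation exchangers and cotransporters 7 of 12 (median 0.012). The scaffolds Slc9a3r1 and Slc9a3r2 were at 0.054 and -0.0090. The chloride cotransporters Slc12a2, which loads cells with chloride, and Slc12a4, which unloads them, were at 0.059 and -0.013. Organic solute carriers were at a median of 0.0073 over 19 genes, and the nucleotide sugar carriers that feed glycosylation in the Golgi at -0.0082 over 5, with Slc35a4 at 0.075 and Slc35a1, which carries CMP-sialic acid, at -0.044. The rule takes only symbols with the letter a, so Slc35 genes with another letter are not among these 5 and were not examined. Among carriers of vitamins, nucleosides and haem (median 0.0017 over 10), the haem carrier Slc48a1 was at -0.0027 and the nucleoside carrier Slc29a1 at 0.0061. The phosphate carriers Slc20a1 and Slc20a2 were at -0.035 and 0.054, and in the vesicular and lysosomal class the acetyl-CoA carrier Slc33a1 and the sialic acid exporter Slc17a5 were at 0.043 and -0.043.

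Carriers named outside the rule and the partners of carriers were likewise without a gene past the threshold. Of 34 listed carriers with other names, 27 had a row, 12 above 0 and 15 below, with a median of -0.0094. At an unadjusted p under 0.05 there were 0 of them, where 5.30% of all genes were. Mfsd2a, Mfsd6 and Mfsd8, of smallest p in this list, were at -0.045, -0.073 and -0.057. Of 16 partners and sodium pump genes, 10 lay above 0 with a median of 0.024. Of the 16, 1 (6.25%) had an unadjusted p under 0.05, a share near the 5.30% of all genes. It was Fxyd5, a regulator of the sodium pump that sets the gradient many carriers use, at -0.10 (limma adjusted p = 0.903, SE 0.0366). Fxyd1, of the same family of regulators, was at 0.046 (limma adjusted p = 0.991, SE 0.0444).

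Carriers varied between embryos about as much as other genes, with a median residual SD of 0.0670 beside 0.0730 over all genes. The most variable was Slc4a1, the chloride/bicarbonate exchanger of the red cell membrane, with a residual SD of 0.460. It lay at 10.51, 10.97, 11.80, 11.33 and 11.35 in supplied embryos 1 to 5 and 10.80, 11.13, 11.01, 10.91 and 11.89 in withdrawn embryos 1 to 5. Slc25a37, which brings iron into mitochondria for haem synthesis in red cell precursors, was second (0.326), at 9.78, 10.15, 10.66, 10.41 and 10.45 in supplied embryos 1 to 5 and 9.81, 10.25, 10.23, 10.03 and 10.65 in withdrawn embryos 1 to 5. Both were highest in supplied embryo 3 and withdrawn embryo 5 and lowest in supplied embryo 1. The erythroid list, which holds neither gene, had a mean level of 8.30, 8.52, 9.02, 8.65 and 8.66 in supplied embryos 1 to 5 and 8.54, 8.52, 8.41, 8.48 and 8.98 in withdrawn embryos 1 to 5. After each group's mean was removed, Slc4a1 followed that list with Pearson's r = 0.95 (exact permutation p = 0.00215, adjusted p = 0.408) and Spearman's rho = 0.83 (exact permutation p = 0.0106, adjusted p = 0.689), with r = 0.86 when the 2 embryos farthest from the median of the list were left out. For Slc25a37 the relation was Pearson's r = 0.85 (exact permutation p = 0.00632, adjusted p = 0.463) and Spearman's rho = 0.83 (exact permutation p = 0.0106, adjusted p = 0.689), with r = 0.68 when the 2 embryos farthest from the median of the list were left out. These are 2 of 1632 relations, 204 carriers with 8 marker lists, over which the p-values were adjusted, and 0 passed 0.05. They were not the relations of smallest p. Smaller ones included Slc37a4 with the mesonephric list (Pearson's r = -0.92, exact permutation p = 0.000556, adjusted p = 0.302). Another was Slc26a6 with the germ cell list of 4 genes (Pearson's r = -0.86, exact permutation p = 0.00118, adjusted p = 0.389). Between the groups Slc4a1 differed by -0.043 (limma adjusted p = 0.999, SE 0.204) and Slc25a37 by -0.10 (limma adjusted p = 0.992, SE 0.147), with overlapping groups in both.

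**Figure D3:**
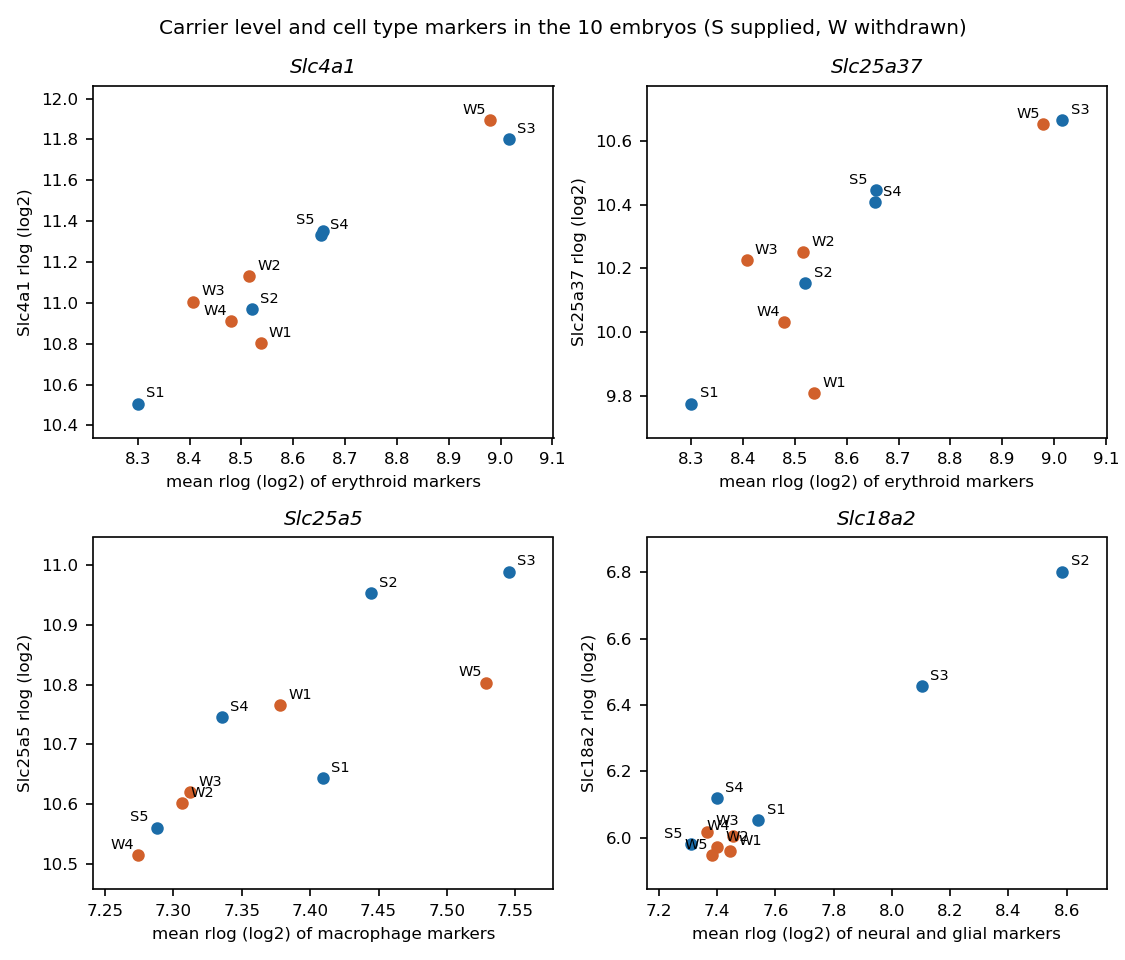
Each point is 1 of the 10 embryos (S supplied, W withdrawn, with its number), placed by the mean level of a cell type marker list on the horizontal axis and by the level of a carrier on the vertical axis, both on the rlog (log2) scale. Supplied embryo 3 and withdrawn embryo 5 are highest in erythroid markers, Slc4a1 and Slc25a37, and supplied embryos 2 and 3 stand apart in neural markers and Slc18a2.

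Other carriers among the 10 of largest residual SD had other orders of embryos. Slc4a3, an anion exchanger, was at 10.69, 10.72, 10.69, 11.03 and 11.15 in supplied embryos 1 to 5 and 10.71, 10.79, 11.19, 10.72 and 10.54 in withdrawn embryos 1 to 5, and Slc22a17, a receptor for lipocalin 2, at 10.18, 10.19, 9.99, 10.32 and 10.43 in supplied embryos 1 to 5 and 10.27, 10.08, 10.56, 10.22 and 10.13 in withdrawn embryos 1 to 5. Withdrawn embryo 3, supplied embryo 5 and supplied embryo 4 were the 3 highest in both. Slc9a8, a sodium/proton exchanger of the Golgi, was at 8.63, 8.51, 8.39, 8.73 and 8.66 in supplied embryos 1 to 5 and 8.42, 8.56, 8.76, 8.69 and 8.52 in withdrawn embryos 1 to 5, with withdrawn embryo 3 and supplied embryo 4 highest. Slc8a1, the sodium/calcium exchanger prominent in heart, was at 10.99, 10.99, 11.10, 11.38 and 10.98 in supplied embryos 1 to 5 and 11.11, 11.35, 11.17, 11.15 and 11.09 in withdrawn embryos 1 to 5, with supplied embryo 4 and withdrawn embryo 2 highest. Their changes were -0.067 (limma adjusted p = 0.992, SE 0.107), 0.028 (limma adjusted p = 0.998, SE 0.0858), 0.0063 (limma adjusted p = 0.999, SE 0.0708) and 0.090 (limma adjusted p = 0.978, SE 0.0714). Of the 80 relations of these 10 carriers with the 8 marker lists, 12 had an unadjusted exact permutation p under 0.05 for r (against 98 of all 1632), and 0 passed after adjustment. With the macrophage list, which lay at 7.41, 7.44, 7.55, 7.34 and 7.29 in supplied embryos 1 to 5 and 7.38, 7.31, 7.31, 7.27 and 7.53 in withdrawn embryos 1 to 5, Slc25a5 had Pearson's r = 0.84 (exact permutation p = 0.00354, adjusted p = 0.463) and Spearman's rho = 0.85 (exact permutation p = 0.00611, adjusted p = 0.602), with r = 0.80 when the 2 embryos farthest from the median of the list were left out. For Slc39a8 the values with that list were Pearson's r = 0.81 (exact permutation p = 0.00410, adjusted p = 0.463) and Spearman's rho = 0.72 (exact permutation p = 0.0328, adjusted p = 0.745), with r = 0.55 when the 2 embryos farthest from the median of the list were left out. Slc39a8 also had Pearson's r = 0.77 with the erythroid list (exact permutation p = 0.0176, adjusted p = 0.698). Spearman's rho for this pair was only 0.47 (exact permutation p = 0.215, adjusted p = 0.862). Its r fell to 0.18 when the 2 embryos farthest from the median of the list were left out. Slc4a3 and Slc9a8 went the other way with the macrophage list, both at Pearson's r = -0.72 (exact permutation p = 0.0432 and 0.0305, adjusted p = 0.730 for both). Among the supplied embryos, Slc25a5 and Slc39a8 were highest in embryos 2 and 3. These 2 embryos stand apart in the neural list, for which no correlation is given. Slc38a4 was highest in supplied embryo 2 (11.40), while supplied embryos 1 and 3 were both at 11.19. The part of macrophage, erythroid or neural RNA in these values was not tested.

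To compare levels between genes, the log2 of the exon length in kb was subtracted from the mean rlog over the 10 embryos, here called the level per length. Lengths are unions of annotated exons on another build than the files', so a gene with long rare exons is placed too low. Over the 204 carriers the level per length ran from 1.78 to 11.10, with a median of 6.05. The ADP/ATP carriers Slc25a4 (11.10) and Slc25a5 (10.001) were the highest, followed by the zinc carrier Slc39a7 (9.65), the scaffold Slc9a3r2 (9.37) and Slc25a39 (9.36), a mitochondrial glutathione carrier. In the amino acid families Slc38a2 (9.26) and Slc38a4 (9.03) led, ahead of Slc38a10 (8.83) and both chains of the large neutral amino acid exchanger, Slc3a2 (8.77) and Slc7a5 (8.58). Slc12a4, Slc12a2 and Slc12a7 lay at 7.79, 7.73 and 7.71 (SD over embryos 0.0735, 0.0875 and 0.0509). Neighbours in that order differed by less than the SD of either, while Slc12a4 and Slc12a7 differed by more. The SD covers variation between embryos and not the uncertainty of the exon lengths, 4.28 kb for Slc12a4 and 12.67 kb for Slc12a7. Before the lengths were subtracted Slc12a7 was the higher (11.37 against 9.89), so the order of these genes is not settled. The red cell exchanger Slc4a1 was at 8.88, above the widely expressed Slc4a2 (8.04). Before their lengths (4.89 and 8.32 kb) were subtracted they lay at 11.17 and 11.10 (SD over embryos 0.434 and 0.0507). Their distance therefore rests mostly on the exon lengths. At the low end were the neutral amino acid carrier Slc6a15 (1.78) and Slc37a1 (1.82).

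**Figure D4:**
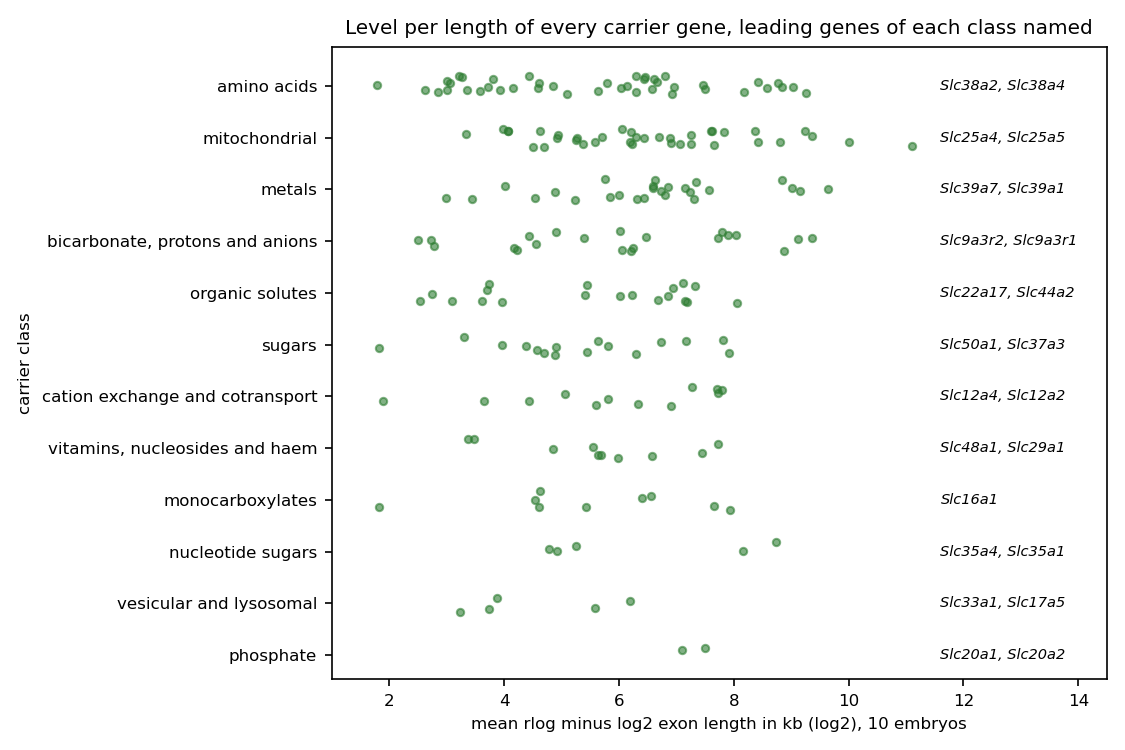
Each point is 1 of the 204 carrier genes, placed by its level per length (mean rlog over 10 embryos minus log2 of exon length in kb), in the row of its class; vertical scatter within a row only separates the points, and the names at the right are leading genes of each class. The mitochondrial Slc25a4 (11.10) is the highest of all.

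Families differed in how many of their genes had a row. Of 342 protein-coding carrier symbols of this form in RefSeq, 202 had one, the 4 carriers left out by the rule included. All members with current symbols had a row in the nucleoside (Slc29, 4 of 4), sugar-phosphate (Slc37, 4 of 4) and magnesium (Slc41, 3 of 3) families. In the mitochondrial family 37 of 47 did and in the zinc exporters 8 of 10. By contrast 7 of 25 members of the organic ion family Slc22 and 2 of 13 of the sodium-coupled Slc5 family had a row, and 0 of 5 in the Slc13, 0 of 4 in the Slc28 and 0 of 3 in the Slc34 families, which are best known from kidney and gut. A symbol without a row was not analysed here.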

How the data were processed

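RNA-seq of gonadal soma from 10 embryos (supplied n = 5, withdrawn n = 5, grouped by the treatment label) was analysed; the low-input library kit was given 2 ng of RNA, per the labels' protocols. Values are gene rlog on a log2 scale, as deposited by the authors. The submitters' processing notes name DESeq2 1.20.1, TopHat2 2.1.1, Trim Galore 0.4.0 and build mm9, with no role for each. Counts and depth are unknown; values ran from 4.04 to 21.2 with sample medians of 9.12 to 9.14, and no 2 libraries held equal values (0% of genes).

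The members and lists were chosen with earlier results of these data known. All 13578 genes (mean at least 3, which removed 0 carriers) were fitted with limma 3.58.1 in R 4.3.3, on group alone with trended variance; p was adjusted by Benjamini-Hochberg over all genes at 0.05; the script was tested on simulated data. Named carriers (53) were the 10 of smallest p in each direction, in each of 12 classes the one of smallest p and the 2 of highest level per length, the 10 of largest residual SD and the ATF4 and zinc lists. Of the other lists the 3 of smallest p were to be named; those of cell type lists are mostly given as list means. Relations with marker lists used residuals about group means and all 14400 orders within groups, two-sided (smallest possible p 6.94e-05). Exon lengths and overlaps came from GENCODE M21 (GRCm38), in which all 204 carriers had an entry (1 under a newer name, Slc24a6 as Slc8b1); exons of 62 overlapped those of another gene.

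Other settings were no variance trend, robust variance, a mean minimum of 5, 7 or none, sample weights, quantile normalization, centring on medians, a block for replicate number, averages or a random block for title numbers, 5 symbols left out and each embryo left out in turn. Leaving out supplied embryos 2 and 3 was added after seeing the data. A few genes are not reported here by name, among them 1 of the 9 carriers at an unadjusted p under 0.05; they are included in all counts and medians.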

Additional observations from a re-analysis of the deposited data

Results flagged for a closer look

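Groups of 5 were examined for an embryo whose gap to the nearest other exceeded Dixon's 95% critical share of the group's range, which chance passes in about 1 of 20 groups. Of 106 groups of named carriers, 3 held such an embryo. Slc8a2 was at 8.34 in withdrawn embryo 2, against 8.25 to 8.27 in the other withdrawn embryos. Slc40a1 was at 10.10 in withdrawn embryo 1, against 9.77 to 9.85 in the others. Slc39a7 was at 10.89 in supplied embryo 3, against 10.98 to 11.003 in the others.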

How the results depend on the processing

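No carrier passed the adjusted threshold in any setting run, and the lowest limma adjusted p of a named carrier was 0.527 (Slc18a2 without supplied embryo 5). The 9 carriers at an unadjusted p under 0.05 became 6 to 13 when each embryo was left out in turn and 6 without supplied embryos 2 and 3; the median change ran from -0.0034 to 0.0066 in the former. With the replicate number as a block the count was 5, past 1.5 times lower. Deviations of same-numbered embryos correlated across groups between -0.36 and 0.17. These values gave no general sign of pairing by replicate number. Whether some same-numbered embryos shared a handling step was not tested. Within groups, embryos that share a title number had a consensus correlation of 0.24 over all genes. The main fit and the permutations treated the 5 embryos of a group as independent. Other settings gave counts of 6 to 10 carriers at an unadjusted p under 0.05. Of 1157 values of 53 named carriers in 22 settings, 1083 kept their direction and 74, in 21 carriers, did not, all of them in carriers that did not pass the test. With supplied embryos 2 and 3 left out, the change was of opposite sign in Slc38a4 (0.033), Slc9a3r2 (0.0014), Slc25a4 (0.031), Slc25a5 (0.011), Slc22a17 (-0.060), Slc29a1 (-0.0024), Slc4a1 (0.086), Slc39a8 (0.11), Slc9a8 (-0.085), Slc7a1 (0.0052) and Slc7a5 (-0.041). With sample weights, the change was of opposite sign in Slc9a3r2 (0.0058), Slc29a1 (-0.0013) and Slc3a2 (-0.0066). With same-title-number embryos averaged, the change was of opposite sign in Slc25a4 (0.0078), Slc16a1 (0.0080), Slc22a17 (-0.022), Slc48a1 (0.0015), Slc29a1 (-0.0062), Slc4a1 (0.026), Slc39a8 (0.047), Slc9a8 (-0.045), Slc7a1 (0.0027) and Slc7a5 (-0.0016). With quantile normalization, the change was of opposite sign in Slc48a1 (0.0011). With a random block for title number, the change was of opposite sign in Slc39a8 (0.0068) and Slc9a8 (-0.011). Without 1 embryo at a time the change spanned 0 in Slc38a2 (-0.049 to 0.027), Slc9a3r2 (-0.051 to 0.030), Slc12a4 (-0.049 to 0.0066), Slc16a1 (-0.024 to 0.018), Slc22a17 (-0.050 to 0.081), Slc50a1 (-0.032 to 0.00071), Slc37a3 (-0.00070 to 0.077), Slc48a1 (-0.046 to 0.027), Slc29a1 (-0.022 to 0.034), Slc4a1 (-0.23 to 0.11), Slc25a37 (-0.22 to 0.00066), Slc4a3 (-0.17 to 0.0073), Slc39a8 (-0.050 to 0.061), Slc9a8 (-0.043 to 0.049), Slc1a5 (-0.040 to 0.0042), Slc3a2 (-0.023 to 0.027), Slc7a1 (-0.048 to 0.011) and Slc7a5 (-0.013 to 0.073). In the other 35 named carriers the sign held, and in 20 of these at least 1 embryo moved the change by over 1.5 times, such as Slc38a4 (-0.13 to -0.0015), Slc8a1 (0.045 to 0.16) and Slc6a15 (-0.076 to -0.031). The cause was not tested. Without read counts, the depth at which a change of these sizes could be seen is unknown.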
